A study of Mus musculus with 19 samples.

Results

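Phosphate transporters, the parathyroid hormone receptor and Klotho were followed in whole mouse kidneys as a group of 9 genes of renal phosphate handling, chosen by name and found in the RNA libraries among 54146 listed genes. They are the sodium-phosphate cotransporter genes Slc34a1, Slc34a2, Slc34a3, Slc20a1 and Slc20a2, the receptor genes Pth1r and Fgfr1, the co-receptor gene Kl and the scaffold gene Slc9a3r1. RNA was measured in 2 KspCre DKO libraries and 3 control libraries. KspCre DKO kidneys came from mice of genotype KspCre Dnmt3ab f/f, in which a Cre recombinase under the Ksp-cadherin (Cdh16) promoter acts on floxed Dnmt3a and Dnmt3b, and control kidneys from Dnmt3ab f/f mice, whose label names no Cre. All were of strain B6C3F1/J and 3 weeks of age (postnatal day 21). The products of both floxed genes methylate DNA de novo, and the comparison asks how kidney gene expression differs when tubule epithelium loses them. A further 14 samples, of 19 in all, are bisulfite libraries and are not analysed here.

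Phosphate that passes the glomerulus is taken back by the proximal tubule, where Slc34a1 (NaPi-IIa) and Slc34a3 (NaPi-IIc) carry it across the brush border with sodium. Parathyroid hormone, through Pth1r, and the bone hormone FGF23, through Fgfr1 and its co-receptor Klotho, withdraw these carriers from the membrane, and Slc9a3r1 (NHERF1) anchors Slc34a1 there. Klotho is most abundant in the distal convoluted tubule, and Slc20a1 and Slc20a2 (PiT-1 and PiT-2) serve phosphate uptake in most cell types. The Ksp-cadherin promoter is active in tubule epithelium, most strongly beyond the proximal tubule, so the segment that makes the Slc34a carriers is not the one where Cre is known to be strongest.

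Values are TPM, which are corrected for transcript length and add up to the same total in every library, so that levels of different genes can be set side by side; the read number is lost and depth is unknown. The libraries differed in complexity. KspCre DKO 2 had 14710 genes above 0 TPM and 31.0% of its TPM in mitochondrially encoded genes, against 18488 to 20510 genes and 18.2% to 23.2% in the other 4 libraries. The genes named by the genotype did not check the labels: the libraries labelled KspCre DKO had 9.98 and 14.2 TPM of Dnmt3a, and the controls 13.2, 18.97 and 15.5 TPM. For Dnmt3b they had 2.29 and 3.25 TPM, and the controls 1.82, 2.86 and 1.98 TPM. A whole-gene TPM does not show whether the floxed exon is present, so each direction given here rests on the labels. The labels do not state whether replicates are different animals; the p-values then reflect only library-to-library spread, which may be technical. In whole kidney, fewer cells of a type and less RNA per cell cannot be told apart.

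All 9 genes passed the filter of a mean of at least 1 TPM, and none differed between groups. Limma on log2(TPM + 1), fitted over 13963 tested genes, called 0 of 9 higher and 0 of 9 lower at an adjusted p below 0.05, where it called 0.165% of tested genes (0.1% higher and 0.0645% lower, 14 and 9 genes; 24 and 7 after median-of-ratios scaling, 35 and 7 after quantile normalization). At an unadjusted p below 0.05 it was again 0 of 9, against 10.3% of tested genes, 4.16% higher and 6.15% lower. For none of the 9 were both KspCre DKO libraries above or below every control, whereas 26.1% of tested genes had groups without overlap, 10.5% with KspCre DKO higher and 15.6% with KspCre DKO lower. The median log2 fold change of the 9, KspCre DKO minus control, was −0.15, and that of all tested genes was −0.14. With 2 libraries in the KspCre DKO group, the 95% intervals of 6 of the 9 genes include a change of 1 log2 unit.

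**Figure D1:**
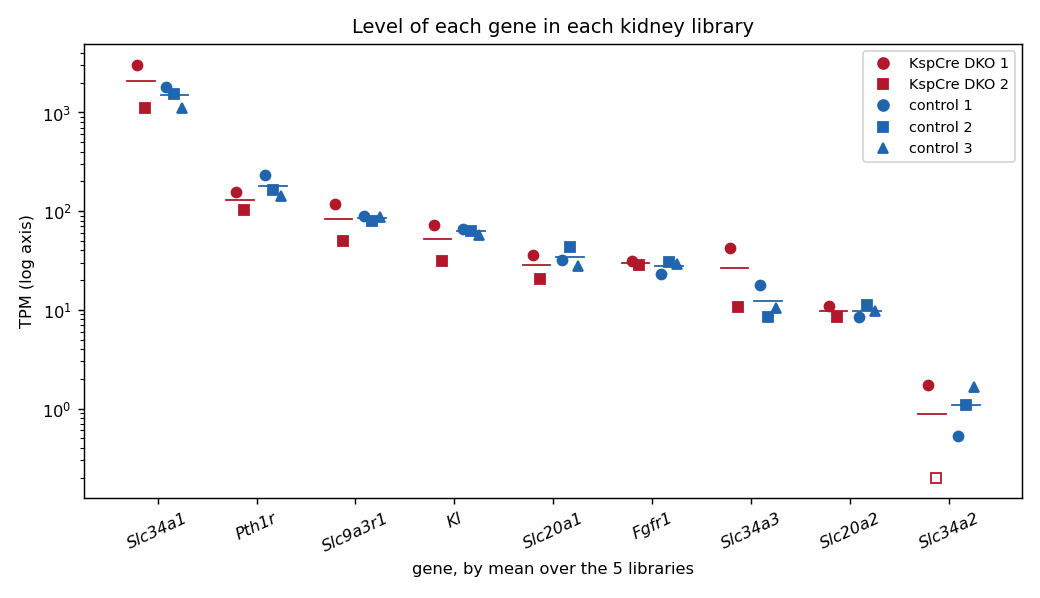
TPM of the 9 genes (log axis) in each library, ordered by the mean over the 5 libraries; red marks are the 2 KspCre DKO libraries, blue marks the 3 controls, and short lines the group means. KspCre DKO 1 lies above KspCre DKO 2 for each gene, and the open square stands for Slc34a2 listed at 0 in KspCre DKO 2.

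Slc34a1 (ENSMUSG00000021490.11, chromosome 13, 55399622 to 55414695, RefSeq GRCm38.p6) was the most abundant of the 9 in every library. It stood at 3053 and 1104 TPM in KspCre DKO 1 and 2, and at 1831, 1527 and 1119 TPM in control 1, 2 and 3. The KspCre DKO libraries bracket the controls: one is the highest of the 5 and the other the lowest. Among all genes it ranked 24 and 57 in the KspCre DKO libraries and 44, 50 and 96 in the controls. The log2 fold change was 0.33 ± 0.42 (SE; 95% interval −0.62 to 1.28; limma adjusted p = 0.817). Its direction rests on KspCre DKO 1: without that library the log2 fold change was −0.41, and without KspCre DKO 2 it was 1.06. In the same refits the median of all genes was −0.39 and 0.13. Slc34a1 alone made up 97.1% and 96.5% of the summed TPM of the 5 cotransporter genes in the KspCre DKO libraries and 96.9%, 96.0% and 95.8% in the controls.

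Slc34a3 (chromosome 2, 25228897 to 25234270), the second brush-border carrier and the one whose loss in humans causes a phosphate-wasting rickets, stood at 42.8 and 10.8 TPM in KspCre DKO kidneys and at 17.7, 8.52 and 10.4 TPM in controls. KspCre DKO 1 was above every other library, and KspCre DKO 2 lay among the controls. The group means were 26.8 ± 22.6 TPM (SD, n = 2) and 12.2 ± 4.84 TPM (SD, n = 3), and the log2 fold change of 0.84 ± 0.55 (SE; 95% interval −0.41 to 2.10; limma adjusted p = 0.636) was the largest in size among the 9. It was 1.79 without KspCre DKO 2 and −0.10 without KspCre DKO 1, where the median of all genes was 0.13 and −0.39. Slc34a2 (chromosome 5, 53049353 to 53071664), the carrier of lung and gut, was the lowest of the 9: it stood at 1.75 and 0 TPM in KspCre DKO kidneys and 0.53, 1.08 and 1.65 TPM in controls. Its exact 0 may be a failed estimate, and the log2 fold change was −0.30 (limma adjusted p = 0.886).

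The Slc20 genes encode carriers found in most cell types. Slc20a1 (chromosome 2, 129198773 to 129211615) stood at 36.3 and 20.5 TPM in KspCre DKO kidneys and 32.2, 43.5 and 27.8 TPM in controls, with KspCre DKO 2 below the controls and KspCre DKO 1 among them (log2 fold change −0.30, 95% interval −1.09 to 0.49; limma adjusted p = 0.791). For Slc20a2 (chromosome 8, 22476700 to 22569616), KspCre DKO kidneys had 10.9 and 8.48 TPM and controls 8.40, 11.3 and 9.74 TPM, so both KspCre DKO libraries fell inside the control range. Its log2 fold change was −0.02 ± 0.30 (SE; 95% interval −0.72 to 0.68). The interval stays within 1 log2 unit on either side of 0.

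The letters before the gene starts differ among these genes in CpG, the dinucleotide on which the Dnmt3 enzymes act. RefSeq start windows were available for 7 of the 9 genes, 10 windows in all, and the 200 bases from 250 to 51 before each start were read. Start here means the start annotated for the window, which can lie inside the gene positions given above. The Slc34a1 and Slc34a3 windows thus end less than 51 bases from those positions. Over 32851 such windows the median number of CpG was 4. The windows of both brush-border carriers are shown beside those of Kl and Slc20a1, because they run from no CpG to 21; CpG is in capitals, and each is written 5′ to 3′ on the strand of its gene (GRCm38.p6).
Slc34a1 (chr13:55399398-55399597, + strand): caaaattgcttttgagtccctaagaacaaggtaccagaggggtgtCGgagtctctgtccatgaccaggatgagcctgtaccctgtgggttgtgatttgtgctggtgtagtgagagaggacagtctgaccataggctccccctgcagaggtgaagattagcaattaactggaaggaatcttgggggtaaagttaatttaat
Slc34a3 (chr2:25234285-25234484, − strand): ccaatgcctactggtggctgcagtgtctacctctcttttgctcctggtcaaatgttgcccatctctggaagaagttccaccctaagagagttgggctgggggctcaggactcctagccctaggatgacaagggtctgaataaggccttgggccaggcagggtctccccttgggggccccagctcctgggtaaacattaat
Kl (chr5:150952357-150952556, + strand): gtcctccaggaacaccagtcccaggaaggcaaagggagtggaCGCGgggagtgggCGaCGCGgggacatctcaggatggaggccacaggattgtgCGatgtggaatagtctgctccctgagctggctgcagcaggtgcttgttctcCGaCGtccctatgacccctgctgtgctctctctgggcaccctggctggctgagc
Slc20a1 (chr2:129198523-129198722, + strand): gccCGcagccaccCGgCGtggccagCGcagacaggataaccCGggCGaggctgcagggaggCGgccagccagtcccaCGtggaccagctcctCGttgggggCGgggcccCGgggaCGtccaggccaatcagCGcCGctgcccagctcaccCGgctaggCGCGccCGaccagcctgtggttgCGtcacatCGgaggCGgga
The Slc34a1 window held 1 CpG and the Slc34a3 window 0, and 24.6% and 10.9% of all windows hold as few or fewer. The Kl window held 8 CpG, at or above 67.9% of windows, and the first Slc20a1 window 21, at or above 92.7%. Slc34a2 had 23, Slc9a3r1 13 and the outermost Pth1r start 3. GTTAAT, the half-site of the HNF1 recognition sequence, was searched on both strands and was found in the Slc34a1 window alone among the 10; 5.33% of all windows hold it. These are descriptions of the reference sequence, and methylation at these windows is not analysed here.

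Pth1r (ENSMUSG00000032492.14, chromosome 9, 110722085 to 110747145) encodes the receptor through which parathyroid hormone acts on the tubule. It was second to Slc34a1 in every library, at 155 and 102 TPM in KspCre DKO kidneys and 233, 162 and 142 TPM in controls. KspCre DKO 2 was the lowest library, while KspCre DKO 1 lay between the controls. The log2 fold change was −0.47 ± 0.31 (SE; 95% interval −1.19 to 0.24; limma adjusted p = 0.642). Unlike Slc34a1 and Slc34a3, it stayed below 0 whichever library was left out, at −0.77 to −0.18. The −0.77 was without KspCre DKO 1, where the median of all genes was −0.39. The −0.18 was without KspCre DKO 2, where that median was 0.13.

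Kl (chromosome 5, 150952607 to 150993817) encodes Klotho, without which FGF23 cannot signal through Fgfr1. It stood at 73.1 and 30.9 TPM in KspCre DKO kidneys and at 65.8, 63.1 and 57.95 TPM in controls. The 3 controls lay close together, at 62.3 ± 4 TPM (SD, n = 3), and the KspCre DKO libraries lay on either side of them, at 52.0 ± 29.8 TPM (SD, n = 2). The log2 fold change was −0.38 ± 0.37 (SE, limma adjusted p = 0.751). It was 0.23 without KspCre DKO 2 and −0.98 without KspCre DKO 1, where the median of all genes was −0.39. Either refit leaves a single KspCre DKO library, so no p-value is given for it. Fgfr1 (chromosome 8, 25518759 to 25575718), the receptor of that pair, showed the smallest difference between the KspCre DKO libraries: it stood at 31.4 and 28.4 TPM in KspCre DKO kidneys and 23.3, 30.3 and 28.96 TPM in controls, a log2 fold change of 0.12 ± 0.28 (SE; 95% interval −0.51 to 0.75).

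Slc9a3r1 (chromosome 11, 115163341 to 115181178), the scaffold that holds Slc34a1 at the brush border, repeated the pattern of Kl. It stood at 118 and 50.4 TPM in KspCre DKO kidneys, on either side of 88.5, 80.1 and 88.3 TPM in controls. The log2 fold change was −0.15 ± 0.36 (SE, 95% interval −0.98 to 0.68, limma adjusted p = 0.913), 0.45 without KspCre DKO 2 and −0.75 without KspCre DKO 1. In these refits the median of all genes was 0.13 and −0.39.

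**Figure D2:**
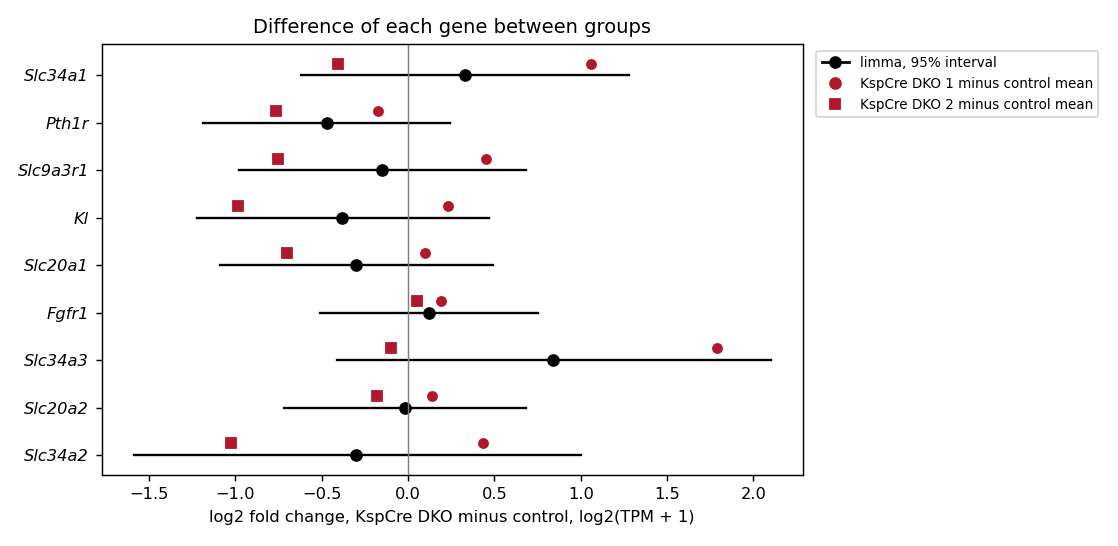
Log2 fold change of each gene, KspCre DKO minus control, from log2(TPM + 1) values (black point, limma; line, 95% interval), with each KspCre DKO library minus the control mean in red. Every interval includes 0, and the KspCre DKO libraries lie on opposite sides of 0 for 7 of the 9 genes, the exceptions being Pth1r, below 0 in both, and Fgfr1, above 0 in both.

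The difference between the 2 KspCre DKO libraries was larger than the difference between groups for each of the 9 genes. All 9 were higher in KspCre DKO 1 than in KspCre DKO 2, as were 79.3% of tested genes. The median log2 difference between these libraries was 1.21 for the 9 genes and 0.54 for all tested genes. In TPM, KspCre DKO 1 exceeded KspCre DKO 2 by 3.96 times for Slc34a3, 2.77 for Slc34a1, 2.36 for Kl and 2.33 for Slc9a3r1, and by 1.51 for Pth1r and 1.10 for Fgfr1. Markers of the proximal tubule moved in the same direction: 22 of 24 measured markers were higher in KspCre DKO 1, with a median log2 difference of 1.43. Their summed TPM was 7586 and 3856 in KspCre DKO 1 and 2 and 6627, 5083 and 4609 in the controls. The part of proximal tubule content or of library complexity in the members' values was not tested.

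The proximal tubule list as a whole did not separate the groups. Limma called 0 of its 24 genes, and 1 had an unadjusted p below 0.05; 15 log2 fold changes were above 0 and 9 below, with a median of 0.14. Lrp2 (megalin) stood at 72.1 and 44.8 TPM in KspCre DKO kidneys and 73.2, 57.9 and 53.7 TPM in controls, and Cubn (cubilin) at 25.7 and 13.04 TPM in KspCre DKO kidneys and 22.8, 18.05 and 17.3 TPM in controls. Markers of other segments gave different sums. Those of the thick ascending limb, among them Slc12a1 and Umod, summed to 1200 and 862 TPM in KspCre DKO kidneys and 2134 to 2355 TPM in controls. The list of the distal convoluted and connecting tubule, where Klotho is made, summed to 5627 and 6570 TPM in KspCre DKO kidneys. In controls its sum was 7190 to 9886 TPM. Most of that sum came from S100g and Klk1. S100g stood at 1634 and 2247 TPM in KspCre DKO kidneys and 3970, 3306 and 3706 TPM in controls. For Klk1, KspCre DKO kidneys had 3379 and 3721 TPM and controls 5122, 4766 and 2824 TPM. Of the 10 log2 fold changes in this list 2 were above 0 and 8 below. Slc12a3, the transporter that defines the distal convoluted tubule, stood at 231 and 181 TPM in KspCre DKO kidneys and 155, 133 and 127 TPM in controls. Collecting duct principal cell markers summed to 2559 and 2547 TPM in KspCre DKO kidneys and 1059 to 1130 TPM in controls. Within that list Aqp2, the water channel of principal cells, had the highest level, with 1414 and 1218 TPM in KspCre DKO kidneys and 347, 240.1 and 426 TPM in controls; 6 of its 9 log2 fold changes were above 0 and 3 below, namely those of Scnn1b, Scnn1g and Hsd11b2 (named after their values were seen). Limma called 0 genes of any of these lists. An unadjusted p below 0.05 was found for 5 of 9 collecting duct principal cell genes, all higher, 6 of 12 thick ascending limb genes and 3 of 10 distal tubule genes, all lower, against 10.3% of tested genes. It was found for 2 of 8 intercalated cell, 0 of 7 podocyte, 1 of 7 endothelial, 3 of 9 fibroblast and 2 of 7 myeloid genes, all lower. The lists of intercalated cells, podocytes, endothelium, fibroblasts and myeloid cells also gave 0 calls; their summed TPM was 416, 238, 357, 85.5 and 51.8 in KspCre DKO 1, 558, 245, 266, 122 and 45.8 in KspCre DKO 2, and 460 to 693, 135 to 420, 276 to 523, 112 to 266 and 62.1 to 123 in the controls. Markers of bone and parathyroid were at or near 0, with 4 of 5 listed at 0 in every library.

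The genes of proximal tubule function were also read against the markers of that segment within each library. On this scale the KspCre DKO libraries came closer together for Slc34a1, Slc34a3 and Slc9a3r1. For Pth1r they moved further apart, with KspCre DKO 1 now below KspCre DKO 2. The log2(TPM + 1) of Slc34a1 minus the mean of the 24 markers was 4.47 and 4.42 in KspCre DKO kidneys and 4.14, 4.55 and 4.09 in controls, which overlap. For Slc34a3 the same difference was −1.65 and −2.13 in KspCre DKO kidneys and −2.48, −2.78 and −2.53 in controls, so both KspCre DKO libraries were above every control, by 0.70 on average. For Pth1r it was 0.18 and 1 in KspCre DKO kidneys and 1.17, 1.32 and 1.12 in controls, so both were below, by 0.61 on average; that gap was −0.20 without KspCre DKO 1 and −1.03 without KspCre DKO 2. For Slc9a3r1 the groups overlapped, at −0.22 and −0.01 in KspCre DKO kidneys against −0.22, 0.31 and 0.44 in controls. An exact two-sided permutation of the 5 libraries has 10 splits and cannot give a p below 0.1, which is the value for Slc34a3 and for Pth1r; with 4 genes read this way neither passes a threshold of 0.05. Read the same way, 18.6% of all tested genes had groups without overlap, 3.39% with KspCre DKO higher and 15.2% with KspCre DKO lower.

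**Figure D3:**
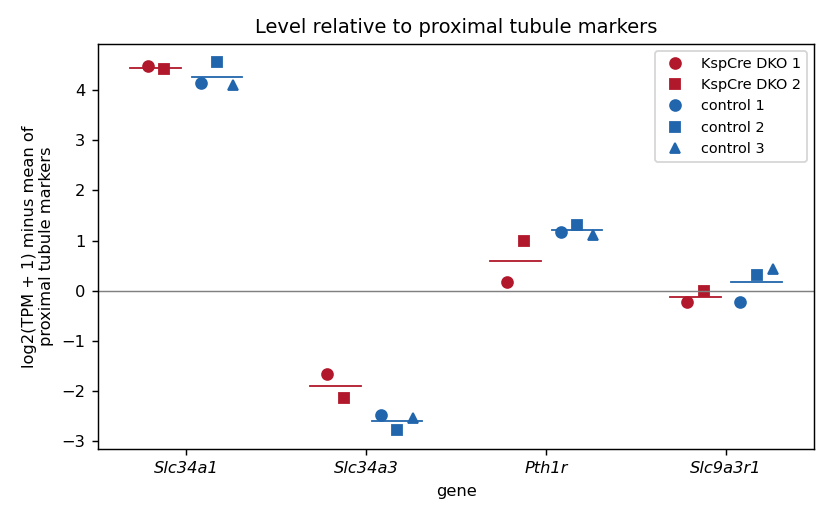
Log2(TPM + 1) of the 4 genes of proximal tubule function minus the mean of the proximal tubule markers in the same library (vertical axis, log2 units); red marks are KspCre DKO, blue marks control, lines group means. Slc34a3 lies higher and Pth1r lower in both KspCre DKO libraries than in any control, while Slc34a1 and Slc9a3r1 overlap; 18.6% of all tested genes separate the groups on this scale.

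Ratios of TPM between the members within a library do not depend on a library's scaling factor. Group overlap and the permutation tests were read from differences of log2(TPM + 1) instead. There the added 1 leaves some dependence for genes of low TPM such as Slc34a2. In TPM, Slc34a1 exceeded Pth1r 19.8 and 10.8 times in KspCre DKO kidneys and 7.87, 9.42 and 7.90 times in controls. Slc34a1 exceeded Kl 41.8 and 35.7 times in KspCre DKO kidneys and 27.8, 24.2 and 19.3 times in controls. Both ratios were higher in each KspCre DKO library than in any control, as were Slc34a3 over Pth1r and Slc34a3 over Kl (exact permutation p = 0.1 for each of these 4 ratios, the smallest possible). Slc34a1 exceeded Slc34a3 71.4 and 102 times in KspCre DKO kidneys and 104, 179 and 108 times in controls, so both KspCre DKO libraries were below every control, KspCre DKO 2 by little (exact permutation p = 0.3). Of 36 ratios between the 9 genes, 9 had groups without overlap, which is 25% of them, against 32.5% of all ratios between 2 tested genes. The adjusted p over the 36 ratios was 0.758 for those 4, by the exact permutation test, and the share without overlap is no higher than the background.

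The order of the levels was steady at the top and less so below. In each library the order from the top was Slc34a1, Pth1r, Slc9a3r1 and Kl. In the controls the ranges of these 4 genes did not overlap, whereas those of Slc20a1 and Fgfr1 did, and so did those of Slc34a3 and Slc20a2; Slc34a2 was lowest. In KspCre DKO kidneys Slc34a1 stood clear, but the ranges of Pth1r and Slc9a3r1, of Slc9a3r1 and Kl, and of Kl and Slc20a1 each overlapped. Slc34a3 was number 5 of 9 in KspCre DKO 1 and 7 in KspCre DKO 2, and 7, 8 and 7 in control 1, 2 and 3.

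Genes with the most similar pattern were sought among 6557 genes of at least 10 TPM on average, by Pearson r of log2(TPM + 1) over the 5 libraries, as a description. Among the 3 closest to Slc34a1 were Foxo3 (r = 0.998) and Pnpla7 (r = 0.992). Those closest to Pth1r were Dph3, Spc25 and Tspan8 (0.988, 0.984 and 0.983), and those closest to Kl were G6pc, the glucose-6-phosphatase of gluconeogenesis, Med20 and Mycbp2 (0.999 each). An r of at least 0.9 was reached by 258 genes with Slc34a1, 117 with Pth1r and 1045 with Kl. All points share the same 5 libraries, and the low value in KspCre DKO 2 is part of each pattern: G6pc stood at 167 and 11.8 TPM in KspCre DKO kidneys and 119, 118 and 85.2 TPM in controls.

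The other genes of phosphate, PTH, FGF23 and vitamin D handling gave 0 calls as well. Of 71 listed genes 67 were measured and 55 tested; limma called 0 higher and 0 lower. At an unadjusted p below 0.05 there were 3 higher and 3 lower, or 6 of 55, against 10.3% of tested genes. The median log2 fold change of the 55 was −0.13, beside −0.14 for all tested genes. The groups did not overlap for 17 of the 55, where 26.1% of tested genes had none.

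Of the hormones and mineralisation factors, 7 were tested, 1 with a log2 fold change above 0. Fgf23 and Pth, the hormones themselves, were listed at 0 in every library, as were Dmp1 and Mepe of bone, and Phex was at or below 0.08 TPM. Fam20c, the kinase that phosphorylates secreted proteins including FGF23, stood at 47.4 and 31.4 TPM in KspCre DKO kidneys and 18.7, 12.02 and 18.8 TPM in controls, with both KspCre DKO libraries above the controls (log2 fold change 1.20 ± 0.33 SE; limma adjusted p = 0.258). Enpp1, which makes pyrophosphate, stood at 5.87 and 2.89 TPM in KspCre DKO kidneys and 8.38, 8.31 and 7.23 TPM in controls (limma adjusted p = 0.498). Alpl, the phosphatase that breaks it down, stood at 157 and 68.2 TPM in KspCre DKO kidneys and 123, 168 and 127 TPM in controls, which overlap.

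Among 8 tested FGF receptors and response genes, 4 log2 fold changes were above 0 and 4 below. Fgfr2, whose splice forms serve epithelial FGF signals, stood at 48.4 and 68.3 TPM in KspCre DKO kidneys and 25.4, 36.9 and 19.2 TPM in controls (log2 fold change 1.10 ± 0.34 SE; limma adjusted p = 0.318), and unlike the 9 genes above it was higher in KspCre DKO 2 than in KspCre DKO 1. Fgfr3 stood at 33.1 and 11.4 TPM in KspCre DKO kidneys and 23.6, 48.1 and 30.6 TPM in controls. Spry1 is an inhibitor of FGF signalling that the pathway itself induces. It stood at 8.69 and 3.98 TPM in KspCre DKO kidneys and 8.54, 13.1 and 18.7 TPM in controls, which overlap (limma adjusted p = 0.476). Dusp6 and Egr1, also response genes, were higher in both KspCre DKO libraries than in any control. Dusp6 stood at 14.7 and 16.3 TPM against 10.3, 8.07 and 12.9 TPM (limma adjusted p = 0.589). Egr1 stood at 4.89 and 6.23 TPM against 2.90, 2.85 and 3.23 TPM (limma adjusted p = 0.515). The other tested response genes, Spry2 and Etv5, had log2 fold changes of −0.33 and 0.04, and their groups overlapped. Of the 8 tested genes 3 had KspCre DKO higher without overlap and 0 lower, against 10.5% and 15.6% of all tested genes. Klb, the relative of Klotho that serves FGF19 and FGF21, was at or below 0.08 TPM in every library.

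Of 15 tested genes of PTH receptor signalling, 7 were above 0 and 8 below, with a median of −0.03. Gnas, whose product Gs alpha couples Pth1r to adenylyl cyclase, stood at 642 and 614 TPM in KspCre DKO kidneys and 688, 746 and 862 TPM in controls, both below every control by a log2 fold change of −0.28 (95% interval −0.79 to 0.23; limma adjusted p = 0.697). Adcy6, one such cyclase, stood at 105 and 78.8 TPM in KspCre DKO kidneys and 81.5, 139 and 106 TPM in controls. Prkar2b, a regulatory subunit of protein kinase A, stood at 4.45 and 4.34 TPM in KspCre DKO kidneys and 1.25, 0.74 and 1.84 TPM in controls (log2 fold change 1.27 ± 0.39 SE; limma adjusted p = 0.314).

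Of 15 tested scaffolds and other phosphate carriers, 11 had a log2 fold change below 0, with a median of −0.27; over all tested genes 8615 of 13963 were below 0, with a median of −0.14. Slc9a3, the brush-border sodium-proton exchanger that Slc9a3r1 also binds, stood at 39.0 and 17.2 TPM in KspCre DKO kidneys and 40.5, 72.3 and 66.1 TPM in controls (log2 fold change −1.13 ± 0.41 SE; limma adjusted p = 0.39). Slc25a3, the mitochondrial phosphate carrier, stood at 519 and 334 TPM in KspCre DKO kidneys and 694, 581 and 668 TPM in controls (log2 fold change −0.63 ± 0.26 SE; limma adjusted p = 0.46). For both, the KspCre DKO libraries were below every control. Gabarap, a binding partner of Slc34a1, stood at 458 and 304 TPM in KspCre DKO kidneys and 451, 473 and 468 TPM in controls.

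Vitamin D and calcium genes, 10 tested, had a median of −0.14. Casr, the calcium-sensing receptor, stood at 2.50 and 0.42 TPM in KspCre DKO kidneys and 2.93, 4.10 and 3.12 TPM in controls (limma adjusted p = 0.528). Rxra, the partner of the vitamin D receptor, stood at 19.2 and 13.6 TPM in KspCre DKO kidneys and 13.9, 8.76 and 11.8 TPM in controls. Calb1, a calcium-binding protein of the distal tubule, stood at 33.7 and 40.1 TPM in KspCre DKO kidneys and 110, 33.7 and 54.3 TPM in controls, where control 1 was above all others.

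**Figure D4:**
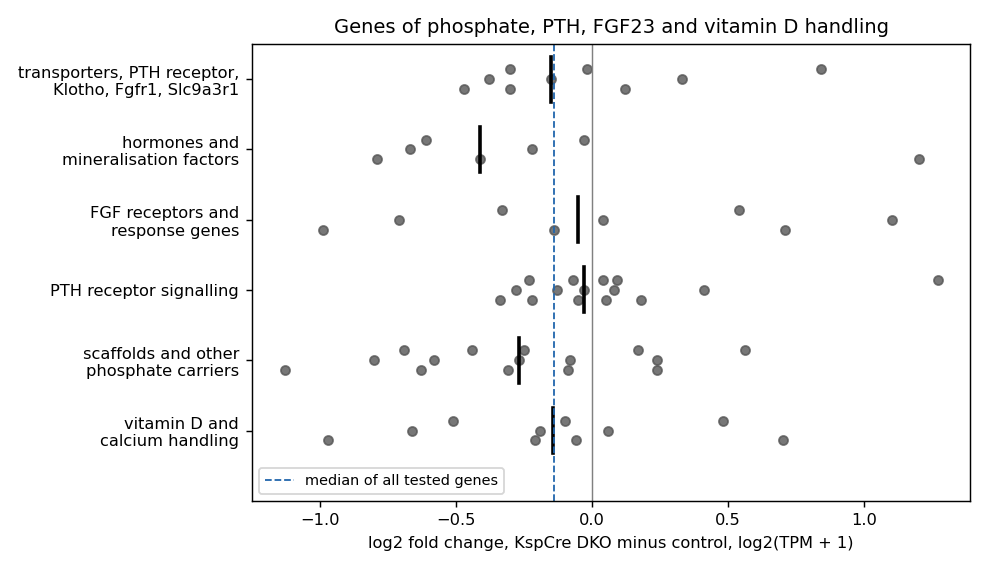
Log2 fold change, KspCre DKO minus control, of each tested gene (points, one per gene; vertical jitter carries no value) of the 9 genes and of 5 lists of related genes; thick lines are list medians and the dashed line the median of all tested genes, −0.14. No point passed an adjusted p below 0.05; Prkar2b at 1.27 and Fam20c at 1.20 lie farthest to the right and Slc9a3 at −1.13 farthest to the left.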

How the data were processed

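Whole-kidney RNA was sequenced from poly(A)-selected TruSeq libraries, per the labels' protocols. STAR 2.2.1, RSEM 1.3.1 and the build mm10 are named in the submitters' processing notes; annotation and strand setting: not given in the sources used here. The deposited values are TPM per Ensembl gene, from which depth cannot be recovered, so no counting error is given. Of 54146 identifiers 96.9% were paired with a symbol, and positions and start windows come from RefSeq GRCm38.p6 by symbol. Groups were taken from the titles: 2 KspCre DKO and 3 control libraries.

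Limma 3.58.1 (R 4.3.3) compared log2(TPM + 1) two-sided, its prior variance following mean level, over the 13963 genes averaging 1 TPM or more, with Benjamini-Hochberg adjustment over all of them and a threshold of 0.05; it was tested on simulated data. Log2 fold changes are KspCre DKO minus control; the added 1 understates those of low genes. The 16 alternatives were a pseudocount of 0.1 or 5, a filter at 5 TPM or none, 3 other scalings, 3 other moderation or weighting settings, a replicate block, and leaving out each of the 5 libraries.

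The 9 genes and the lists were chosen with earlier results of these data known. Named genes were the 9; in each pathway list the 2 of highest mean TPM and the 2 of smallest p; and the 2 leading markers of a list. The ratios between genes, G6pc's values, Dmp1, Mepe, Phex, Klb, Fgf23, Pth, Dusp6, Egr1, Spry2, Etv5, S100g and Klk1 were chosen after their values were seen. Of 71 pathway genes 4, and of 109 marker genes 9, are not analysed here. One gene of similar pattern to Slc34a1 is not reported here.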

Additional observations from a re-analysis of the deposited data

How the results depend on the processing

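None of the 9 genes and none of the other pathway genes was called in any alternative in which it was tested; that was all 16 for 8 of the 9 genes and 11 for Slc34a2, whose mean did not reach the filter in the others. Marker genes, 0 of which were called in either direction, gave 1 or 2 higher calls in 8 alternatives: 2 with a pseudocount of 5, 1 with a mean of at least 5 TPM, 1 with median-of-ratios scaling, 1 with quantile normalization, 2 when rescaled without mitochondrially encoded genes, 1 with robust moderation and 2 without control 1, the genes being Aqp2 and Elf5. With the replicate block 2 were higher and 1 lower. Over the refits that left out a control, marker calls ranged from 0 to 2 higher, with 0 lower. A refit without a KspCre DKO library leaves a single library in that group, so its calls are not given.

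Leaving out each library turned the direction of 7 of the 9 log2 fold changes, which then ranged from −0.41 to 1.06 for Slc34a1, −0.50 to 0.43 for Slc34a2 (over the 2 refits in which its mean reached 1 TPM), −0.10 to 1.79 for Slc34a3, −0.70 to 0.10 for Slc20a1, −0.18 to 0.14 for Slc20a2, −0.98 to 0.23 for Kl and −0.75 to 0.45 for Slc9a3r1. The median of all genes also changed sign in these refits, from −0.14 with all libraries to 0.13 without KspCre DKO 2, and was −0.39 without KspCre DKO 1. The turns of direction are thus not particular to the 9 genes. Slc20a2, at −0.02, became 0.08 with median-of-ratios scaling, 0.05 with quantile normalization, 0.08 without mitochondrially encoded genes and 0.00 with array weights. Slc34a2, near the floor, moved most with the pseudocount, to −1.34 with 0.1 and −0.06 with 5. Slc34a2 became 0.03 and Slc9a3r1 0.01 with quantile normalization. That normalization moved the median of all genes by 0.12 on the log2 scale. Calls over all genes were 14 higher and 9 lower. When a control was left out they ranged from 5 to 45 higher and from 3 to 14 lower. A pseudocount of 5 gave 28 and 11, and one of 0.1 gave 7 and 7. No filter gave 3 and 1, no trend 6 and 3, array weights 3 and 2, and rescaling without mitochondrially encoded genes 26 and 11.

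Replicate numbers are shared by 2 pairs, too few to show pairing. Deviations of same-numbered libraries correlated at 0.09 and 0.03, and those of libraries of unlike number at −0.09 to 0.07. For each control, the value with KspCre DKO 2 was that with KspCre DKO 1 with its sign reversed. With the replicate block, calls over all genes were 47 higher and 28 lower, and for Slc34a1, Pth1r and Kl the log2 fold changes were 0.13, −0.62 and −0.43. No KspCre DKO library shares the number of control 3, so the block takes control 3 out of the group difference. These log2 fold changes are therefore the same as those without control 3, and are not a separate result. The levels relative to proximal tubule markers kept their direction in each of their 10 alternatives for all 4 genes read this way. That includes Slc34a1 and Slc9a3r1, whose groups overlapped, so a kept direction does not set Slc34a3 and Pth1r apart.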
